A study of Mus musculus with 8 samples.

Results

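The tumour suppressor p53 (Trp53 in the mouse), its regulators Mdm2, Mdm4 and Cdkn2a, and its direct transcriptional targets Cdkn1a, Ccng1, Zmat3, Phlda3, Aen and Trp53inp1 were followed in a mouse leukaemia line. The 10 genes were matched by name, with earlier results of these data known, among the 21859 Ensembl gene IDs counted in the series. All 10 had counts in all 8 samples, and all 10 passed the filter on low counts that left 10729 genes for testing. The samples were cultures of PER-M60, labelled only as leukaemia cells, and RNA sequencing gave whole-number counts per gene. The control group held 4 replicates in control medium, and the other group held 4 replicates in osteoclast-conditioned medium. That is medium taken from osteoclasts, the cells that resorb bone. Each replicate is called a culture here. All cultures were of this 1 line, with no genotype, drug, dose or time among the labels, which also do not say whether replicates were separate cultures started independently. The p-values therefore measure the spread between these samples, which may be technical. The question was how the transcriptome of the leukaemia cells differed between the media.

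As background, p53 is a transcription factor that binds paired copies of a short palindromic motif and switches on genes of cell-cycle arrest, cell death and DNA repair after DNA damage or other stress. MDM2 is the ubiquitin ligase that marks p53 for degradation and is itself a p53 target, MDM4 is a related protein that binds and inhibits p53, and the ARF product of Cdkn2a blocks MDM2. Much of the control of p53 acts on the protein, which RNA counts do not measure. Loss of p53 or of the Cdkn2a locus is common in leukaemia lines.

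Between the media, Trp53inp1, which encodes a stress-induced protein that promotes p53 phosphorylation and autophagy, rose 1.39-fold in osteoclast-conditioned medium, and Mdm4 fell to 0.876 of its control level. The other 8 genes did not pass the test, among them Trp53 itself, Mdm2, Cdkn1a and Cdkn2a. So 1 of 10 was higher and 1 of 10 lower, against 30.5% of all tested genes called in either direction, 15.7% higher and 14.8% lower (edgeR quasi-likelihood test, Benjamini-Hochberg adjusted p under 0.05 over all tested genes). The median log2 fold change of the 10 genes was -0.03, beside -0.01 over all tested genes. These 2 were also the only ones of the 10 whose groups did not overlap, beside 28.2% of all tested genes. Both shares of the 10 lie below the background, and nothing is read from them. Of all calls, 51.6% were higher in osteoclast-conditioned medium, and 40.7% with scaling by total counts only.

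Library totals ran from 15391754 to 21637966 counts, and a floor of 3 counts corresponded to 0.139 to 0.195 CPM (counts scaled to library size, here with TMM factors). Control replicate 2 and osteoclast-conditioned replicate 4 stood apart from their groups: chi-square per degree of freedom over genes was 3.37 to 5.26 for pairs with control replicate 2 against 1.78 to 2.50 for the other control pairs, and 2.60 to 2.83 for pairs with osteoclast-conditioned replicate 4 against 1.38 to 1.58. None of the 12 pairs of libraries within a medium agreed within sampling noise. Among marker lists, the summed level of 11 B-lineage genes was 4257 to 4283 CPM in control medium and 4507 to 4542 CPM in osteoclast-conditioned medium, and 5 of 9 tested were called higher and 1 lower (66.7% called, beside 30.5% of all tested genes). Rag1 and Rag2, which lie inside another gene's span, were at 0 in all samples. Sums over 11 osteoclast genes were 35.9 to 37.4 and 34.7 to 37.9 CPM, with the fusion genes Dcstamp and Ocstamp at 0 in both media, and of the 2 tested, Itgb3 was called lower. Sums over 6 macrophage genes were 6.26 to 7.25 and 7.22 to 9.34 CPM, with Itgam and Cd14 at 0, and of the 2 tested, Lyz2 was called higher. The part of these differences in the results was not tested. In bulk RNA, fewer cells of a type and less RNA per cell cannot be told apart.

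Promoter stretches that hold the p53 motif are shown for 5 of the 10 genes, since p53 binds its direct targets through paired copies of it. These 5 are p53's own gene, its inhibitor Mdm2 and 3 targets. Of the stretches shown, only that of Cdkn1a holds a pair of matches, and the others hold a single match. RefSeq promoter windows (250 bases before to 50 after a start site, GRCm38.p6) were found for 8 of the 10 genes, in 12 windows, and not for Zmat3 and Trp53inp1. The p53 decamer motif was searched on both strands. It reads the same on both, so each match counts once. Capitals mark exact matches only, and each stretch is written 5′ to 3′ on the strand of the gene. A near match stays in lower case, such as tgacatgttc directly after the second Cdkn1a decamer. The Cdkn1a stretch is chr17:29090824-29090973 on the + strand. The Trp53 stretch is chr11:69580259-69580318 on the + strand, and Mdm2's is chr10:117710910-117710969 on the - strand. Ccng1's is chr11:40755437-40755496 on the - strand, and Aen's is chr7:78895927-78895956 on the + strand.
Cdkn1a: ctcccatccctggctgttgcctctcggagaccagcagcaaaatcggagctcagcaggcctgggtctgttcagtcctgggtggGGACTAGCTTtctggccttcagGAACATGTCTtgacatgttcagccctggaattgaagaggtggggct
Trp53: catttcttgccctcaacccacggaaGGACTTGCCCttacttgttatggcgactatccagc
Mdm2: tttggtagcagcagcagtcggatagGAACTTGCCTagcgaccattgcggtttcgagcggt
Ccng1: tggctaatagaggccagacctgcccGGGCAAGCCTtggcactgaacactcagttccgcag
Aen: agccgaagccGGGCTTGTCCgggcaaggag

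Cdkn1a, which encodes the cell-cycle inhibitor p21, held a pair of decamers 12 bases apart in the upstream of its windows. The first decamer started 73 bases before that window's start site. The other Cdkn1a window, at chr17:29093519-29093818, held none. Pairs with up to 13 bases between them occurred in 24 of all 32851 windows (0.0731%), and a single decamer in 2745 (8.36%). A decamer lay in a window of 5 of the 8 genes (Trp53, Mdm2, Cdkn1a, Ccng1 and Aen), in 6 of the 12 windows. Both Aen windows hold the same decamer, at chr7:78895937-78895946 inside the annotated gene. It lies 121 bases before the later start site and after the earlier. The windows of Mdm4, Phlda3 and Cdkn2a held none. A match is a description of the letters, not a bound site, and a window without one says nothing of p53 binding elsewhere in the gene.

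**Figure D1:**
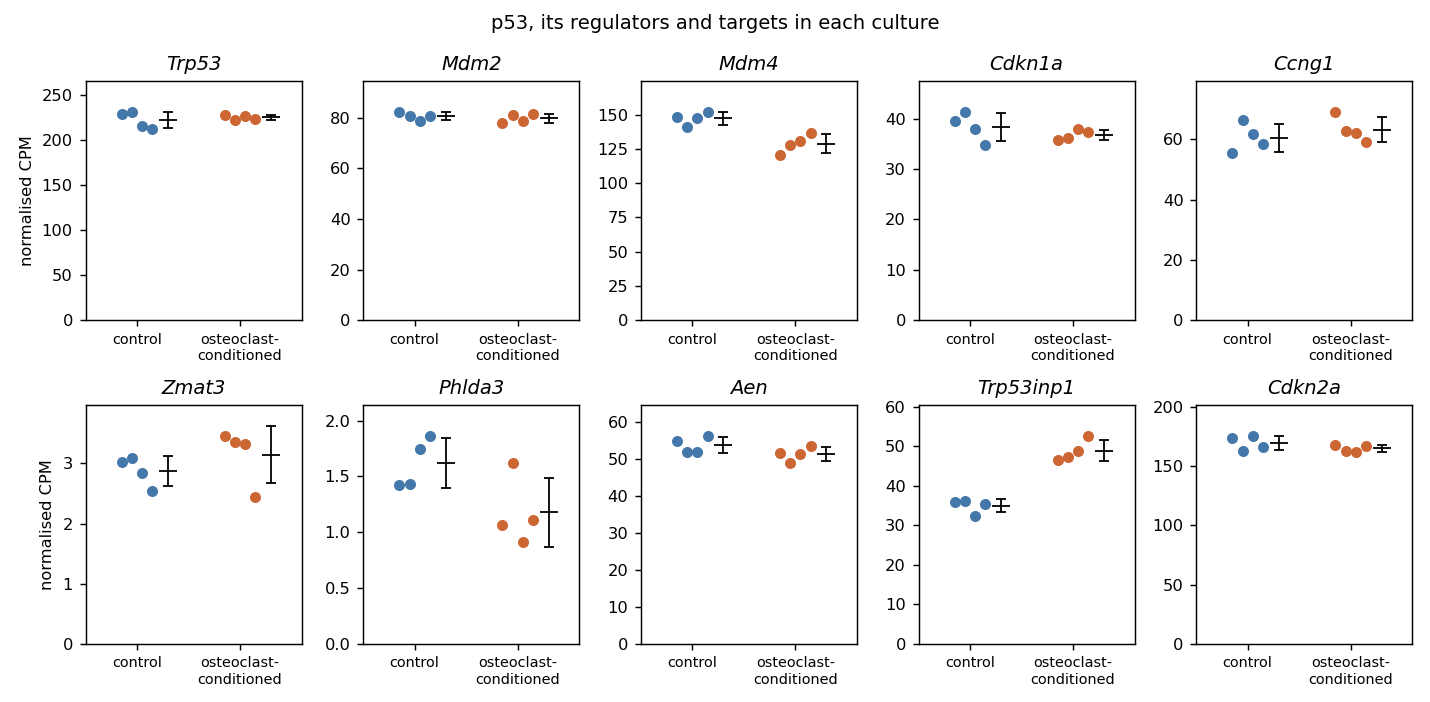
TMM-normalised CPM (vertical axes, each starting at 0) of the 10 genes in the 4 control cultures (blue) and the 4 cultures in osteoclast-conditioned medium (orange), ordered by replicate number, with the mean and SD beside each group. The groups separate for Mdm4, lower in osteoclast-conditioned medium, and for Trp53inp1, higher there, and overlap for the other 8 genes.

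Trp53 (ENSMUSG00000059552, chr11:69580359-69591873, GRCm38) was well counted, with 3335 to 5011 reads per library. Its levels were 229, 231, 216 and 213 CPM in control replicates 1 to 4 and 228, 223, 227 and 224 CPM in osteoclast-conditioned medium. All 4 values in osteoclast-conditioned medium lay within the range of the controls. The means were 222 ± 9.22 and 225 ± 2.36 CPM (SD, n = 4 each), and the controls alone spread further than that (log2 fold change 0.02, SE 0.03, 95% interval -0.04 to 0.08, adjusted p = 0.678). With scaling by total counts only, its sign turned (-0.00307). The interval allows a change of at most 1.06-fold upward and to 0.971 of the control level downward. The p53 relatives Trp63 and Trp73 gave 7 and 3 reads over all 8 libraries and were not tested.

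Mdm2 (ENSMUSG00000020184, chr10:117688875-117710758) read 82.3, 80.9, 78.7 and 80.9 CPM in the control cultures and 78.0, 81.2, 78.6 and 81.6 CPM in osteoclast-conditioned medium. The groups overlapped, with the lowest and second-lowest of all values in osteoclast-conditioned replicates 1 and 3. The means of 80.7 ± 1.46 and 79.8 ± 1.83 CPM did not differ beyond replicate spread (log2 fold change -0.02, SE 0.03, 95% interval -0.09 to 0.05, adjusted p = 0.754).

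Mdm4 (ENSMUSG00000054387, chr1:132959484-133030561) read 149, 141, 148 and 152 CPM in the control cultures and 120.3, 128, 131 and 136 CPM in osteoclast-conditioned medium. All 4 cultures in osteoclast-conditioned medium were below every control, and replicate 4 was nearest to the control range. Groups without overlap in the lower direction made up 12.9% of all tested genes. The means were 147 ± 4.61 and 129 ± 6.67 CPM (SD, n = 4 each), a fall larger than the replicate spread (log2 fold change -0.19, SE 0.03, 95% interval -0.26 to -0.12, adjusted p = 8.59e-05). In size it was ordinary for this comparison: it ranked 776 among 1584 falls, and the median absolute log2 fold change of called genes was 0.19. The call held in all 20 alternatives, with adjusted p up to 0.00186. Counting Mdm4 reads per Mdm2 read within each library gave 1.82 ± 0.0651 in control medium (range 1.74 to 1.88) and 1.61 ± 0.0632 in osteoclast-conditioned medium (range 1.54 to 1.67). The ranges of this ratio did not overlap between the media, whereas those of Mdm2 per Trp53 did (0.350 to 0.380 against 0.342 to 0.365). The Mdm4 per Mdm2 ratio uses the same Mdm4 counts, so it is not separate evidence of the fall.

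Cdkn2a (ENSMUSG00000044303, chr4:89274471-89294653) encodes both p16INK4a, an inhibitor of CDK4 and CDK6, and p19ARF, the inhibitor of MDM2, in alternative reading frames, and gene-level counts do not separate these products. It was present in every library, with 2711 to 3523 reads. Its levels were 174, 163, 176 and 166 CPM in control medium and 167, 163, 162 and 167 CPM in osteoclast-conditioned medium. Controls 1 and 3 were the highest of the 8 values and osteoclast-conditioned replicate 3 the lowest, with the others between, and the difference did not pass the test (log2 fold change -0.04, SE 0.03, 95% interval -0.10 to 0.02, adjusted p = 0.380).

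Of 8 neighbours of Cdkn2a on chromosome 4, 6 were tested, and 2 fell and 0 rose, a share of 33.3% called that is near the 30.5% of all tested genes. Klhl9, a substrate adaptor of a ubiquitin ligase, fell from 101 ± 6.03 to 91.5 ± 1.81 CPM (-0.15, SE 0.04, adjusted p = 0.00251), and 15.8% of its span lies under the gene model Gm26566. Mtap, the methionine salvage enzyme often deleted with CDKN2A in human tumours, had means of 176 ± 7.15 and 166 ± 5.31 CPM (-0.09, SE 0.03, adjusted p = 0.0417), and this call was lost in 11 of 20 alternatives. The p15 gene Cdkn2b, which lies beside Cdkn2a, was at 4.29 ± 0.213 and 4.37 ± 0.423 CPM (0.03, SE 0.12, adjusted p = 0.863). Mllt3 (0.04, SE 0.05, adjusted p = 0.576) and Focad (0.01, SE 0.05, adjusted p = 0.887) did not pass either, nor did Hacd4 (0.35, SE 0.30, adjusted p = 0.394), 34.8% of whose span lies inside Focad. Dmrta1 had 0 reads and Elavl2 7 in all libraries together.

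Among the targets, Cdkn1a (ENSMUSG00000023067, chr17:29090976-29100727) read 39.6, 41.3, 37.9 and 34.8 CPM in control medium and 35.8, 36.2, 37.96 and 37.3 CPM in osteoclast-conditioned medium. The highest and the lowest of the 8 values were both controls, so the groups overlapped, and p21 RNA did not pass the test (log2 fold change -0.06, SE 0.05, 95% interval -0.17 to 0.04, adjusted p = 0.355). Ccng1 (ENSMUSG00000020326, chr11:40748552-40755311), the gene of cyclin G1, which acts back on the p53 and MDM2 pair, read 55.4, 66.3, 61.8 and 58.5 CPM and 69.0, 62.7, 62.1 and 58.9 CPM. The highest value was in osteoclast-conditioned replicate 1 and the lowest in control replicate 1, with overlap between them (log2 fold change 0.06, SE 0.05, 95% interval -0.05 to 0.17, adjusted p = 0.429). Without the libraries that stood apart, Ccng1 passed the test as higher in osteoclast-conditioned medium (0.15, adjusted p = 0.0117), a setting chosen after the data were seen.

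Aen (ENSMUSG00000030609, chr7:78895854-78911209), which encodes a nuclease of apoptosis, read 54.8, 51.9, 51.9 and 56.3 CPM in control medium and 51.5, 48.9, 51.4 and 53.6 CPM in osteoclast-conditioned medium. Replicate 4 in osteoclast-conditioned medium lay within the control range and the other 3 below it (log2 fold change -0.06, SE 0.04, 95% interval -0.15 to 0.02, adjusted p = 0.273). Zmat3 (ENSMUSG00000027663, chr3:32334792-32366014), an RNA-binding splicing regulator, was low, with 435 reads in all. Its levels were 3.02, 3.09, 2.85 and 2.54 CPM and 3.46, 3.35, 3.33 and 2.45 CPM. In osteoclast-conditioned medium, 3 cultures were above every control and replicate 4 was below every control (log2 fold change 0.13, SE 0.15, 95% interval -0.17 to 0.43, adjusted p = 0.535).

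Phlda3 (ENSMUSG00000041801, chr1:135766119-135769136), whose product competes with AKT for membrane lipid, was among the 10 the gene with the fewest reads (199 in all, 17 to 33 per library). It read 1.42, 1.43, 1.75 and 1.86 CPM in control medium and 1.07, 1.62, 0.913 and 1.11 CPM in osteoclast-conditioned medium. There, 3 cultures were below every control and replicate 2 lay within the control range. The difference missed the threshold (log2 fold change -0.46, SE 0.22, 95% interval -0.90 to -0.02, adjusted p = 0.111), and passed it without osteoclast-conditioned replicate 2 (-0.64, adjusted p = 0.0445). At this depth the interval runs from 0.535 to 0.989 of the control level.

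Trp53inp1 (ENSMUSG00000028211, chr4:11156431-11174379) read 35.9, 36.2, 32.5 and 35.4 CPM in the control cultures and 46.7, 47.4, 48.9 and 52.7 CPM in osteoclast-conditioned medium. All 4 cultures in osteoclast-conditioned medium were above every control, as in 15.2% of all tested genes, and replicate 4 was the highest. The means were 35.0 ± 1.70 and 48.9 ± 2.68 CPM (SD, n = 4 each), a rise well beyond the replicate spread (log2 fold change 0.48, SE 0.05, 95% interval 0.38 to 0.58, adjusted p = 5.26e-09). It ranked 158 among 1689 rises. Its log2 fold change was 0.50 without control replicate 2, 0.44 without osteoclast-conditioned replicate 4 and 0.46 without both. Reads of Trp53inp1 per read of Cdkn1a, both targets of p53, were 0.857 to 1.02 in control medium and 1.29 to 1.41 in osteoclast-conditioned medium, without overlap. This ratio uses the same Trp53inp1 counts, so it is not separate evidence of the rise. The ranges of Cdkn1a per Trp53 overlapped, at 0.163 to 0.179 in control medium and 0.157 to 0.167 in osteoclast-conditioned medium.

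**Figure D2:**
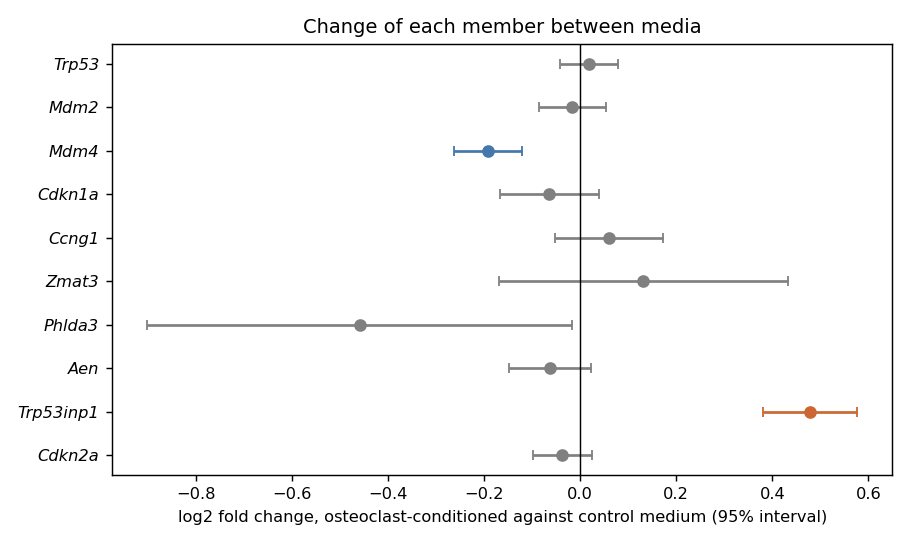
Log2 fold change (horizontal axis) of each of the 10 genes (vertical axis) in osteoclast-conditioned medium against control medium, with its 95% interval from the edgeR fit. Trp53inp1 (0.48, orange) and Mdm4 (-0.19, blue) passed the test, and the intervals of Phlda3 and Zmat3, the genes with the fewest reads, are the widest.

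Scaled to exon length (CPM per kb of the union of annotated exons), the levels in control medium fell in the order Cdkn2a (145), Trp53 (55.0), Ccng1 (17.2), Mdm2 (15.9), Cdkn1a (10.8), Mdm4 (9.95), Aen (9.26), Trp53inp1 (5.405), Phlda3 (1.04) and Zmat3 (0.251). Neighbours whose ranges over the 4 cultures overlapped were Ccng1 with Mdm2, Cdkn1a with Mdm4, and Mdm4 with Aen. In osteoclast-conditioned medium, Trp53inp1 reached 7.55 and Mdm4 8.71 CPM per kb, and there their ranges overlapped, as did those of Mdm4 and Aen (8.85). Cdkn2a and Trp53 were first and second in both media. Dividing by the longest coding transcript instead changed the places of Mdm2, Mdm4 and Ccng1 in control medium, while Cdkn1a kept its place. In osteoclast-conditioned medium it changed the places of Mdm2, Mdm4, Ccng1, Cdkn1a and Aen.

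**Figure D3:**
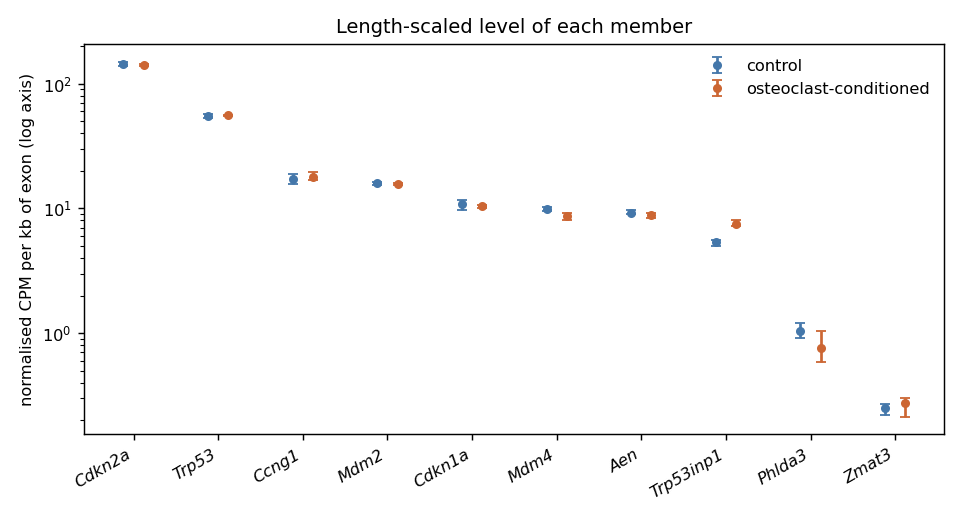
Level of each of the 10 genes per kb of exon (log axis), in control order from left to right, with points for the mean and bars for the range over 4 cultures, control in blue and osteoclast-conditioned medium in orange. Cdkn2a and Trp53 are the most abundant for their length, and Phlda3 and Zmat3 the least.

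Over the 9031 other tested genes averaging 5 CPM or more, those whose log2 CPM followed Trp53 most closely over the 8 samples were Dhcr7 (r = 0.949), Psenen (r = 0.929) and Tmem230 (r = 0.911). For Mdm2 they were Lsm11 (r = 0.951), Gemin7 (r = 0.951) and Tmem71 (r = 0.942). For Cdkn1a, Fundc1 (r = 0.941) and Frmd8 (r = 0.931) were among the 3 nearest. All points share libraries and scaling, and the highest of so many correlations over 8 samples is large by selection, so these are descriptions. With each medium's mean subtracted, the gene nearest to Trp53 was Pim2 (r = 0.972) and to Mdm2 Tmem71 (r = 0.982). The same ranking for the called genes, added after their values were seen, gave Pycr1 (r = 0.997), Mxd4 (r = 0.994) and Tgfbrap1 (r = 0.993) for Trp53inp1 and Eif4a2 (r = 0.989), Zcchc8 (r = 0.981) and Hes6 (r = 0.980) for Mdm4. With medium means subtracted, the nearest were other genes, Ifrd2 (r = 0.987), Cnep1r1 (r = 0.981) and Agfg2 (r = 0.971) for Trp53inp1 and Fam53a (r = 0.982), Pomgnt1 (r = 0.982) and Nlrc3 (r = 0.981) for Mdm4.

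Beyond the 10 genes, 55 further direct p53 targets were listed by role, and 46 were tested. The test called 9 of them up and 8 down in osteoclast-conditioned medium, which is 37.0% called beside 30.5% of all tested genes, with a median log2 fold change of -0.03. Without the libraries that stood apart, 9 were higher and 9 lower. Among arrest targets, 3 rose and 1 fell of 6 tested (66.7% called). Sesn2, a sestrin that restrains mTORC1 signalling, went from 21.3, 18.3, 18.8 and 20.7 CPM to 36.9, 41.5, 40.4 and 40.5 CPM. Its groups did not overlap (1.01, SE 0.06, adjusted p = 2.05e-14). Sfn, the 14-3-3 sigma gene, also rose (0.31, SE 0.05, adjusted p = 4.04e-06), as did the antiproliferative gene Btg2 (0.38, SE 0.12, adjusted p = 0.0198, a call lost in 6 of 20 alternatives), while the related sestrin Sesn1 fell (-0.15, SE 0.04, adjusted p = 0.00341).

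Among apoptosis targets, 1 rose and 1 fell of 11 tested (18.2% called), beside 30.5% of all tested genes. Bbc3, which encodes the BH3-only protein PUMA, rose from 7.23, 6.64, 6.47 and 7.28 CPM to 10.02, 10.1, 9.99 and 11.1 CPM, without overlap (0.58, SE 0.09, adjusted p = 5.85e-06). Pidd1, of the PIDDosome, fell (-0.14, SE 0.05, adjusted p = 0.0402), a call lost in 10 of 20 alternatives. Of the repair and nucleotide genes, 2 rose and 2 fell of 7 tested (57.1% called), above that share. Rrm2b, the p53-inducible ribonucleotide reductase subunit, rose (0.39, SE 0.05, adjusted p = 2.43e-07), and so did Xpc of nucleotide excision repair (0.20, SE 0.04, adjusted p = 6.26e-04). The polymerase Polk (-0.23, SE 0.06, adjusted p = 0.00605) and the sliding clamp Pcna (-0.17, SE 0.03, adjusted p = 3.16e-05) fell.

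Among metabolic and redox targets, 1 rose and 0 fell of 12 tested (8.33% called), the rise being Prkab1, a subunit of AMPK (0.15, SE 0.04, adjusted p = 0.00951). Of feedback and other targets, 2 rose and 4 fell of 10 tested (60.0% called). The shares stand beside 30.5% of all tested genes. The mitotic gene Ckap2 (-0.22, SE 0.04, adjusted p = 4.07e-05), Rps27l (-0.20, SE 0.04, adjusted p = 6.39e-04), a close copy of Rps27 and so uncertain in its reads, and Psrc1 (-0.19, SE 0.07, adjusted p = 0.0482, lost in 11 of 20 alternatives) fell. Rchy1, which encodes another ubiquitin ligase for p53, rose (0.18, SE 0.04, adjusted p = 0.00223). Up to 2 uncalled genes of each target list, those with the highest CPM within their own list, had log2 fold changes of 0.11 (Plk3), -0.13 (Gadd45a), -0.03 (Steap3), 0.01 (Apaf1), -0.03 (Polh), -0.01 (Ercc5), -0.08 (Gpx1), 0.03 (Ddit4), 0.09 (Ppm1d) and -0.07 (Tm7sf3), and the sign of Apaf1, Ercc5, Polh and Tm7sf3 turned in some alternatives. The p53 decamer occurred in 11 of 61 promoter windows of the further targets (18.0%), beside 8.36% of all windows.

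Genes that act on the p53 and MDM2 proteins gave 8 higher and 4 lower of 31 tested (38.7% called, beside 30.5% of all tested genes), with a median log2 fold change of 0.04, beside -0.01 over all. The damage kinase Atm went from 70.3 ± 2.49 to 99.0 ± 5.50 CPM (0.49, SE 0.04, adjusted p = 4.99e-11). The acetyltransferase Crebbp (0.34, SE 0.04, adjusted p = 3.16e-08), the ubiquitin ligase Huwe1 (0.34, SE 0.05, adjusted p = 6.28e-04) and the kinase Hipk2 (0.32, SE 0.06, adjusted p = 2.03e-04) also rose. The 4 that fell, named after their values were seen since the 4 largest changes were all rises, were the checkpoint kinase Chek2 (-0.28, SE 0.05, adjusted p = 1.27e-04), the methyltransferase Smyd2 (-0.27, SE 0.06, adjusted p = 0.00532), the nucleolar GTPase Gnl3 (-0.24, SE 0.03, adjusted p = 3.78e-07) and the deubiquitinase Usp7 (-0.08, SE 0.02, adjusted p = 0.00910). The nucleolar genes Ncl (-0.00466, adjusted p = 0.923) and Npm1 (0.02, adjusted p = 0.650) did not pass. Atm, Crebbp, Huwe1 and Hipk2 are all in the longest of 5 equal classes of tested genes by exon length, where the median log2 fold change was 0.04, beside -0.04 in the shortest. With an offset on exon length and GC content they were 0.47 for Atm, 0.26 for Crebbp, 0.20 for Huwe1 and 0.29 for Hipk2, each still past the threshold. Mdm4, in the same length class, was at -0.26 and Trp53inp1 at 0.51 with that offset. The part of exon length in these results was not tested further.

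Of 12 mitotic and cell-cycle genes that p53 is known to repress through p21 and the DREAM complex, 11 fell and 0 rose in osteoclast-conditioned medium, with a median of -0.20, while 14.8% of all tested genes were lower. Cdk1 went from 146, 146, 145 and 143 CPM to 123, 124, 123 and 113 CPM, without overlap (-0.26, SE 0.03, adjusted p = 1.84e-07). The cyclins Ccnb1 (-0.25, SE 0.04, adjusted p = 7.87e-04) and Ccnb2 (-0.27, SE 0.03, adjusted p = 1.48e-08) and the phosphatase Cdc25c (-0.28, SE 0.06, adjusted p = 0.00141, with 8.93% of its span under another gene) fell too, and E2f1 did not pass (-0.08, SE 0.04, adjusted p = 0.122). These genes are general markers of proliferation, and Cdkn1a itself did not pass the test. Whether their fall involved p53 was not tested.

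**Figure D4:**
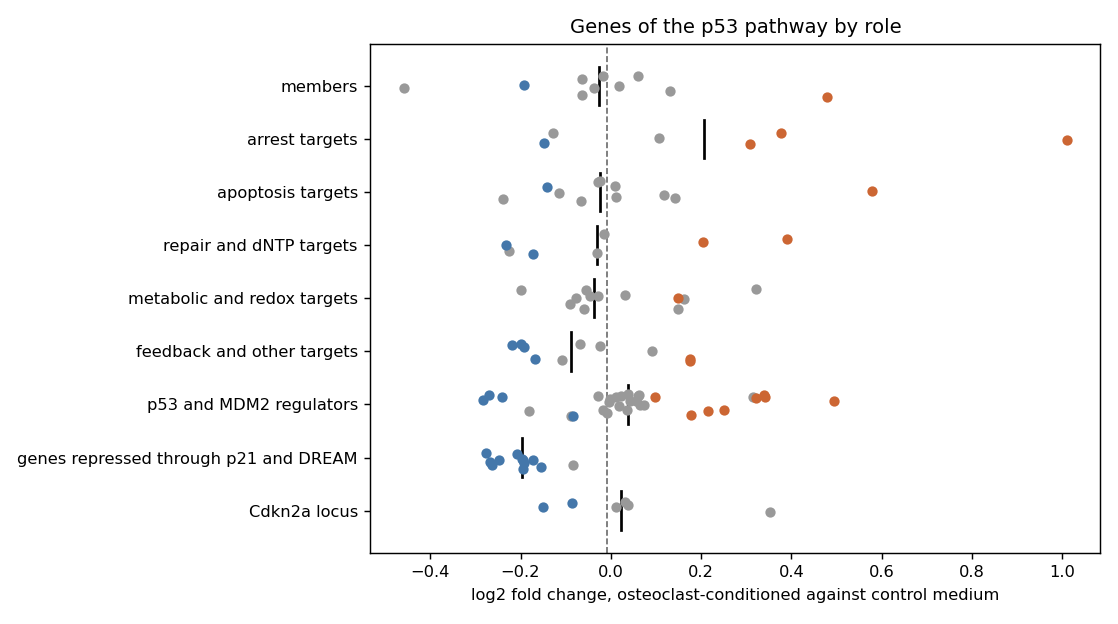
Log2 fold change (horizontal axis) of each tested gene in osteoclast-conditioned medium against control medium, in rows by role with the 10 genes in the top row (members), orange for genes called higher, blue for lower and grey for neither, with each row's median as a black bar and the median of all tested genes as a dashed line. The direct targets spread to both sides, while 11 of 12 genes repressed through p21 and DREAM lie on the lower side as calls.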

How the data were processed

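RNA of PER-M60 cultures was extracted with RNeasy Plus Mini and made into SureSelect HS2 libraries, per the labels' protocols. The deposited values are whole-number counts per Ensembl gene, with no normalization by the authors. The submitters' processing notes name STAR 2.7.5a, featureCounts 2.0.1 and mm10; their settings, strand handling, annotation and barcode handling are not given in the sources used here. Symbols, positions and exon lengths came from GENCODE M21 on GRCm38, the build of mm10 (Ensembl 96), which matched 21817 of 21859 IDs.

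Genes passing filterByExpr (10729) were scaled by TMM and tested with edgeR 4.0.16 in R 4.3.3 (glmQLFit, robust, all 8 samples, medium as the term), with Benjamini-Hochberg adjustment over all of them and a threshold of 0.05. CPM are TMM-scaled, and log2 CPM used a prior count of 2. The fit was tested on simulated counts. The 10 genes and the lists were chosen with earlier results of these data known. From each list, up to 4 called genes averaging 5 CPM or more were named by size of change, and up to 2 uncalled genes by level. The regulators that fell were added after their values were seen, and all genes of the Cdkn2a locus and the p53 family were named. Alternatives were other scalings, filters, DESeq2 1.42.0 and limma-voom (limma 3.58.1), robust estimation off, the replicate block, a threshold of 0.01 and each sample left out. An offset on exon length and GC content (loess, span 0.5), and leaving out control replicate 2 and osteoclast-conditioned replicate 4 together, were chosen after seeing the data. Replicate numbers come from the sample titles. One gene with a pattern like that of Cdkn1a is not reported here.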

Additional observations from a re-analysis of the deposited data

Results flagged for a closer look

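Zmat3 read 2.45 CPM in osteoclast-conditioned replicate 4, the lowest of its group, where the other 3 cultures read 3.33 to 3.46 CPM. Bbc3 read 11.1 CPM in osteoclast-conditioned replicate 4, the highest of its group, where the other 3 cultures read 9.99 to 10.1 CPM. Polk read 33.0 CPM in osteoclast-conditioned replicate 4, the highest of its group, where the other 3 cultures read 27.8 to 28.3 CPM. Cdk1 read 113 CPM in osteoclast-conditioned replicate 4, the lowest of its group, where the other 3 cultures read 123 to 124 CPM. Gnl3 read 262 CPM in control replicate 2, the lowest of its group, where the other 3 cultures read 276 to 279 CPM. Each was far from the rest of its group by Dixon's criterion, and all 5 fell in the libraries that stood apart, 4 of them in osteoclast-conditioned replicate 4. Of 112 groups of 4 examined (56 genes, 2 media), 5 were picked out, where chance alone would give about 5.60, or about 1 in 20. Without osteoclast-conditioned replicate 4 the log2 fold changes were 0.23 for Zmat3, 0.54 for Bbc3, -0.29 for Polk and -0.23 for Cdk1, and Gnl3 was at -0.26 without control replicate 2. Each stayed on its side of the threshold.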

How the results depend on the processing

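The calls of Mdm4 and Trp53inp1 held in all 20 alternatives, and of 31 named genes that were called, 27 kept their call in each and 4 (Btg2, Pidd1, Psrc1 and Mtap) lost it in at least 1. Among those not called, Ccng1, Phlda3, Gpx1 and E2f1 gained a call in at least 1. Genes called higher among the 10 numbered 2 with both libraries that stood apart left out (Ccng1 added), and genes called lower numbered 1 to 2 with a replicate left out (Phlda3 added without osteoclast-conditioned replicate 2). Over all genes, 3273 were called, 2147 at an adjusted p under 0.01 and 2635 to 3578 with a replicate left out; further targets called were 8 to 9 higher and 6 to 7 lower. Of all calls, 51.6% were higher under TMM and 40.7% of 3395 with total counts only, which moved the median by -0.02. Some uncalled genes changed sign, all near 0; the cause was not tested. With total counts only these were Trp53 (-0.00307), Apaf1 (-0.0129), Npm1 (-0.00311) and Focad (-0.00972). With upper-quartile scaling it was Apaf1 (-0.000564). With the offset they were Apaf1 (-0.0246), Mllt3 (-0.0118) and Focad (-0.0493). With both libraries left out they were Polh (0.0114), Tm7sf3 (0.00300) and Cdkn2b (-0.0631). With a replicate left out, the ranges were -0.0192 to 0.0324 for Apaf1, -0.0388 to 0.0195 for Ercc5, -0.0255 to 0.0282 for Ncl, -0.0275 to 0.0678 for Focad and -0.0282 to 0.0766 for Cdkn2b. The shared replicate numbers did not pair the samples: deviations of same-numbered samples correlated from -0.0507 to 0.143. With the replicate block, 3446 genes were called, 1 higher and 1 lower among the 10, and 9 higher and 8 lower among further targets. With a mean of at least 50 counts, Phlda3 and Hacd4 were not tested. Among the 10 genes, Phlda3 and Zmat3 had the fewest reads and the widest intervals.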
